A study of Rattus with 6 samples.

Results

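Parp9, Parp10, Parp12 and Parp14, 4 genes of the PARP family that are known as interferon-induced, and Dtx3l, which encodes the ubiquitin ligase partner of PARP9, were followed in rat cardiac fibroblasts with and without knockdown of Nono. The 5 genes were chosen by symbol from a table of 21378 genes, all 5 were found there once, and all 5 passed the filter on low counts that left 14412 genes for testing. The siNONO group (3 libraries) is rat cardiac fibroblasts from a commercial supplier given an siRNA against Nono by lipofection, and the siCtrl group (3 libraries) is the same cells without that siRNA. The controls are titled siCtrl but described elsewhere in the labels as having received an empty vector, which leaves their treatment unclear. Loss of Nono and delivery of an siRNA therefore cannot be told apart in any difference between the groups. Cells for RT-qPCR and western blots were taken at 48 h; a time for sequencing is not stated. They give no genotype, strain or age, and do not say whether replicates came from separate cultures, so p-values reflect the spread of these libraries alone, part or all of which may be technical.

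PARP proteins transfer ADP-ribose from NAD+ to other molecules. PARP1, PARP2 and the tankyrases build chains of it, whereas most of the family, PARP10, PARP12 and PARP14 included, attach a single unit. PARP9 and DTX3L form a heterodimer, and PARP9 and PARP14 carry macrodomains, modules that bind ADP-ribose. Type I and type II interferons are known to raise the transcripts of these genes through transcription factors of the STAT and IRF families, and their proteins have been tied to antiviral defence and to macrophage activation. NONO, the knocked-down protein, binds RNA and DNA in the nucleus and is a core component of paraspeckles.

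Total counts were 29692746 to 33365588 in siNONO libraries and 27792357 to 32869992 in siCtrl libraries. Nono itself had 73.2 ± 3.14 CPM in siNONO and 238 ± 7.14 CPM in siCtrl libraries (SD, n = 3 each; CPM are read counts relative to the TMM-scaled library total), so that its log2 fold change was -1.70 ± 0.05 (SE; edgeR adjusted p = 4.57e-11). Fibroblast genes were abundant in all libraries, with Col1a2 at a mean of 7292 CPM in siNONO and 7016 CPM in siCtrl and Pdgfra at 651 CPM in siNONO and 623 CPM in siCtrl. Markers of macrophages and other leukocytes were also present: Lyz2 averaged 921 CPM in siNONO and 1001 CPM in siCtrl, and Ptprc, the common leukocyte antigen CD45, 13.3 CPM in siNONO and 11.9 CPM in siCtrl. Of the 10 tested markers of that list, 0 were raised and 5 lowered by edgeR (0 raised at an unadjusted p under 0.05 and 0 by DESeq2), and their summed level was 1397 to 1499.5 CPM in siNONO and 1479.95 to 1654 CPM in siCtrl. The macrophage genes Adgre1 and Fcgr1a fell most of these, with log2 fold changes of -0.50 ± 0.06 and -0.39 ± 0.07 (SE). The B-cell marker Cd79a was near 0, with 2, 1 and 2 reads in siNONO and 0 in each siCtrl library. Of the tested markers of other cells, edgeR called 1 of 5 endothelial markers raised, 1 of 2 cardiomyocyte markers lowered and, of 7 smooth muscle and pericyte markers, 1 raised and 4 lowered. The raised genes were the endothelial receptor Tek (log2 fold change 0.24 ± 0.07), a call lost in 7 of 18 alternative settings, and the muscle filament gene Des (0.36 ± 0.10), a call lost in 3. The cardiac troponin gene Tnnt2 (-0.45 ± 0.05) and the smooth muscle genes Myh11 (-0.88 ± 0.15) and Cnn1 (-0.88 ± 0.16) fell. Of 10 fibroblast markers, 4 were lowered, most of all the matrix genes Lum (-0.91 ± 0.06) and Postn (-0.64 ± 0.05), and the collagen receptor Ddr2 was raised (0.13 ± 0.04), a call lost in 5 of 18 alternative settings. Beside these marker counts, edgeR called 16.2% of all genes tested raised and 15.9% lowered. The endothelial markers Emcn and Kdr were near 0 in both groups, as was the cardiomyocyte marker Myh6. What share of the PARP and Dtx3l transcripts came from cells other than fibroblasts was not tested, and in bulk RNA more cells of a type and more RNA per cell cannot be told apart.

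All 5 genes rose after Nono knockdown, each by less than 2-fold, and in every case all 3 siNONO libraries lay above all 3 siCtrl libraries. Dtx3l rose most, by 67.5%, and Parp10 least, by 27.3%; Parp12, Parp14 and Parp9 rose by 59.9%, 57.4% and 53.2%. The quasi-likelihood test of edgeR was used, with p-values adjusted by Benjamini and Hochberg's method over all 14412 genes and a threshold of 0.05. By that test 16.2% of all genes tested were raised (2338) and 15.9% were lowered (2292), against 5 and 0 of the 5 here. Of all genes tested, 22.9% had all siNONO libraries above all siCtrl libraries. The median log2 fold change was 0.65 over the 5 genes and 0.00 over all genes tested, and 9.98% of all genes tested had a log2 fold change at least as high as that of Parp10. With scaling by total library size the split over all genes was 3174 raised to 1673 lowered, and with log2(FPKM + 1) it was 2829 to 1546; all 5 genes were raised with either.

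**Figure D1:**
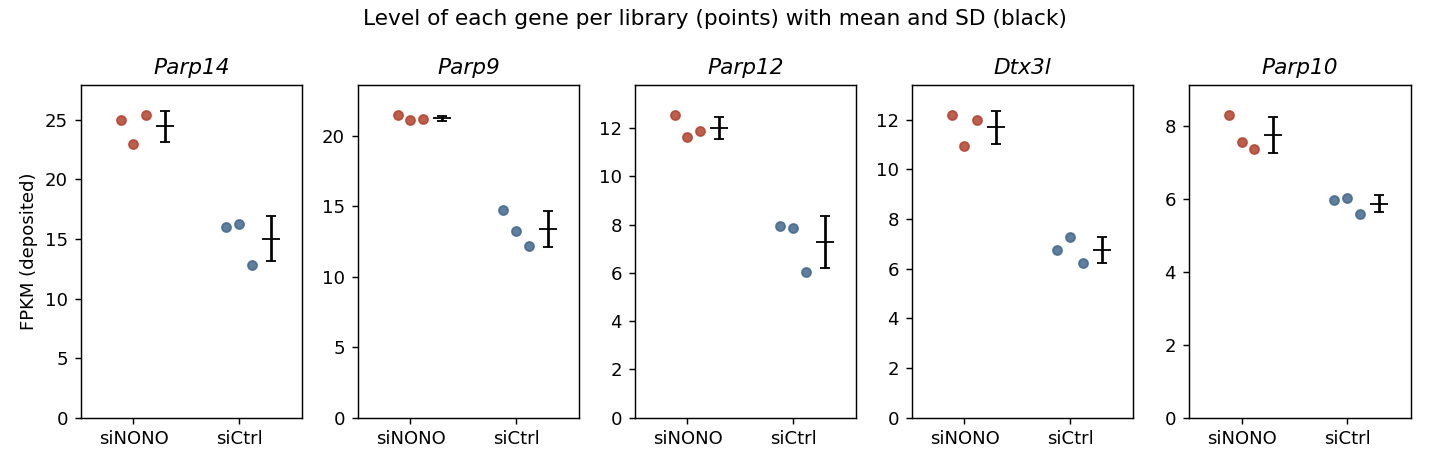
Level of each gene in FPKM (vertical axes, each from 0) in the 3 siNONO and 3 siCtrl libraries (points), with the mean and SD of each group in black. In every panel the siNONO points lie above the siCtrl points; Parp9 has siNONO values from 21.1 to 21.5 and siCtrl values from 12.2 to 14.8 FPKM.

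Parp9 and Dtx3l encode the partners of one complex and are neighbours on chromosome 11. Parp9, the macrodomain protein of the pair, had 172, 172 and 170.5 CPM in siNONO replicates 1, 2 and 3, against 125, 109 and 102 CPM in siCtrl replicates 1, 2 and 3. The siNONO libraries were nearly equal, the siCtrl libraries were spread, and the groups did not overlap (mean 172 ± 1.01 CPM in siNONO and 112 ± 12.1 CPM in siCtrl; SD, n = 3 each). The log2 fold change was 0.62 ± 0.06 (SE; edgeR adjusted p = 4.78e-06). Dtx3l, the E3 ubiquitin ligase of the pair, had 63.5, 57.7 and 62.5 CPM in siNONO replicates 1, 2 and 3, against 37.1, 39.0 and 33.7 CPM in siCtrl replicates 1, 2 and 3. Again every siNONO value was above every siCtrl value, with the lowest in siCtrl replicate 3. Its log2 fold change, 0.74 ± 0.06 (edgeR adjusted p = 6.12e-07), was the highest of the 5, and 2.19% of all genes tested had a higher one.

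Parp14, the gene of a large mono-ADP-ribosyltransferase with several macrodomains that is known as a coactivator of STAT6, lies beside this pair on chromosome 11. It had 191, 178 and 194 CPM in siNONO replicates 1, 2 and 3, against 129, 127 and 101 CPM in siCtrl replicates 1, 2 and 3. Replicate 3 stood lowest among the controls, and the groups were 48.8 CPM apart at their nearest values. It averaged 188 ± 8.75 CPM in siNONO and 119 ± 15.4 CPM in siCtrl (SD, n = 3 each), and the log2 fold change was 0.65 ± 0.07 (edgeR adjusted p = 1.54e-05).

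Parp12 and Parp10 lie on other chromosomes, 4 and 7. Parp12, a mono-ADP-ribosyltransferase with CCCH zinc fingers found at the Golgi and in stress granules, had 65.9, 61.9 and 62.5 CPM in siNONO replicates 1, 2 and 3, against 44.1, 42.4 and 32.8 CPM in siCtrl replicates 1, 2 and 3. siCtrl replicate 3 again stood lowest, and Parp12 had the widest relative spread among the controls (mean 63.5 ± 2.17 CPM in siNONO and 39.8 ± 6.09 CPM in siCtrl; SD, n = 3 each). Its log2 fold change was 0.68 ± 0.08 (edgeR adjusted p = 2.96e-05). Parp10, a mono-ADP-ribosyltransferase first described as a partner of MYC, had 45.5, 41.9 and 40.4 CPM in siNONO replicates 1, 2 and 3, against 34.6, 34.0 and 31.8 CPM in siCtrl replicates 1, 2 and 3. The groups were closest for this gene but did not overlap (mean 42.6 ± 2.61 CPM in siNONO and 33.5 ± 1.49 CPM in siCtrl; SD, n = 3 each), and the log2 fold change was 0.35 ± 0.06 (edgeR adjusted p = 0.000296). For each of the 5 genes on its own an exact two-sided permutation test gave p = 0.1, the smallest that 3 against 3 libraries can give.

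All 5 genes had their lowest level of the 6 libraries in siCtrl replicate 3. The mean of the 5 genes' log2 CPM, each centred on its own mean over the 6 libraries, was 0.35, 0.26 and 0.30 in siNONO replicates 1, 2 and 3 and -0.20, -0.25 and -0.47 in siCtrl replicates 1, 2 and 3. Without siCtrl replicate 3, all 5 genes were still raised, with log2 fold changes of 0.69 for Dtx3l, 0.55 for Parp9, 0.55 for Parp12, 0.55 for Parp14 and 0.31 for Parp10 (edgeR adjusted p up to 0.00261). Among the siCtrl libraries, replicate 3 was the lowest for 11 of 17 tested genes of interferon signalling, replicate 1 for 5 and replicate 2 for 1; over all genes tested, replicate 3 was the lowest for 29.9%. Irf7, the interferon-induced transcription factor, had 255, 169 and 124 CPM in siCtrl replicates 1, 2 and 3, and Usp18, a brake on interferon receptor signalling, 72.9, 59.2 and 39.6 CPM. The 5 genes lowest in replicate 1 were Stat6, Tyk2, Jak2, Jak1 and Irf3.

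**Figure D2:**
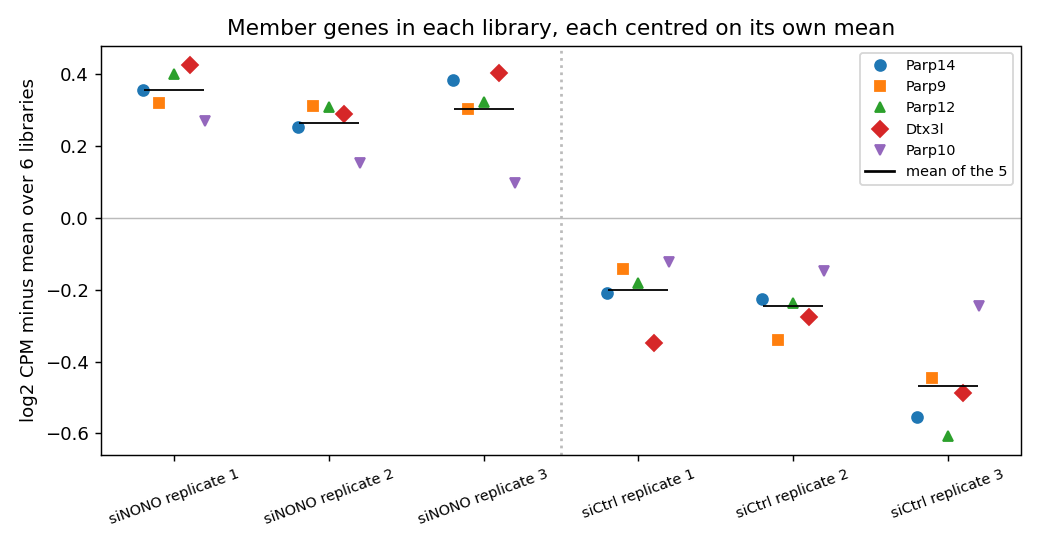
Log2 CPM of the 5 genes in each library (horizontal axis), each gene centred on its mean over the 6 libraries; coloured symbols are genes and the black line is their mean. The mean lies between 0.26 and 0.35 in the siNONO libraries and between -0.47 and -0.20 in the siCtrl libraries, lowest in siCtrl replicate 3.

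Levels between genes were compared in FPKM, which divides by gene length, so the order of genes depends on the lengths used. The lengths implied by counts and FPKM were 8.21 kb for Parp9 and 7.80 kb for Parp14. Parp14 was the most abundant of the 5, with 24.5 ± 1.29 FPKM in siNONO and 15.0 ± 1.90 FPKM in siCtrl libraries (SD, n = 3 each), followed by Parp9 with 21.2 ± 0.189 FPKM in siNONO and 13.4 ± 1.28 FPKM in siCtrl. Parp14 was above Parp9 in all 6 libraries; the ranges of these genes did not overlap in siNONO but did in siCtrl. Parp12 had 12.01 ± 0.468 FPKM in siNONO and 7.27 ± 1.08 FPKM in siCtrl, and Dtx3l 11.7 ± 0.664 FPKM in siNONO and 6.75 ± 0.520 FPKM in siCtrl. Those 2 genes did not differ beyond their spread, and their order was turned in replicate 3 of either group. Parp10 was lowest, with 7.74 ± 0.493 FPKM in siNONO and 5.87 ± 0.239 FPKM in siCtrl, below Dtx3l in all 6 libraries.

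The ratio of 2 genes within a library does not depend on how libraries are scaled, so it shows whether the genes changed unequally. For Parp9 minus Dtx3l the log2 CPM difference was 1.49 ± 0.07 in siNONO and 1.61 ± 0.14 in siCtrl libraries (SD, n = 3 each), a shift of -0.12 that was within the spread (exact two-sided permutation p = 0.2). For Parp14 minus Parp9 it was 0.13 ± 0.07 in siNONO and 0.09 ± 0.12 in siCtrl, a shift of 0.04 (exact permutation p = 0.7). Ratios among Parp9, Parp12, Parp14 and Dtx3l overlapped between the groups in all 6 pairs. Parp10 had the smallest log2 fold change of the 5: the ratio of Parp10 to Dtx3l shifted by -0.40, to Parp12 by -0.34 and to Parp14 by -0.31 on the log2 scale, and that of Parp9 to Parp10 by 0.27. In these 4 pairs siNONO and siCtrl values did not overlap. The exact permutation p was 0.1 for each, the smallest possible, and 0.25 when adjusted over the 10 pairs compared. The test cannot call them with or without that adjustment.

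Among the other PARP genes the antiviral Zc3hav1 had the highest log2 fold change, and 6 did not pass. Of the 12 other PARP genes in the table, all tested, 6 were raised and 0 lowered by edgeR (1 lowered at an unadjusted p under 0.05; DESeq2 called 5 raised and 0 lowered), with a median log2 fold change of 0.14. Over all genes tested, edgeR called 16.2% raised and 15.9% lowered. Zc3hav1 encodes the zinc-finger antiviral protein also called PARP13, which lacks catalytic activity and is itself interferon-induced. It had 131, 126 and 123 CPM in siNONO replicates 1, 2 and 3, against 101, 104 and 93.7 CPM in siCtrl replicates 1, 2 and 3, with no overlap. Its log2 fold change was 0.35 ± 0.05 (edgeR adjusted p = 7.58e-05), beside 0.35 for Parp10. Tiparp, the gene of PARP7 and a target of the aryl hydrocarbon receptor, rose by 0.26 ± 0.05 on the log2 scale, Parp4 of the vault particle by 0.21 ± 0.05 and Parp1, the main DNA-damage PARP, by 0.19 ± 0.04.

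Parp11 (0.22 ± 0.07; edgeR adjusted p = 0.0262) and Parp3, a PARP of DNA break repair (0.15 ± 0.05; adjusted p = 0.0318), were also raised, by calls that depended on single libraries. Parp11 lost its call by DESeq2 (adjusted p = 0.0784), and in the edgeR fits without siNONO replicate 2 (0.0672), siNONO replicate 3 (0.101), siCtrl replicate 2 (0.0693) or siCtrl replicate 3 (0.0870). Parp3 lost it without any one siNONO library (edgeR adjusted p from 0.0605 to 0.135) and without siCtrl replicate 3 (0.143), and with a replicate block both genes lost it (0.0637 for Parp11 and 0.0516 for Parp3). The remaining 6 did not pass. Parp16, an enzyme of the ER membrane, had 0.13, Parp8 0.12, Parp2, a partner of PARP1 in DNA repair, 0.05, the tankyrase gene Tnks 0.03, Parp6 -0.06 and the tankyrase gene Tnks2 -0.11. Parp16 was raised with scaling by total library size (edgeR adjusted p = 0.0362).

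**Figure D3:**
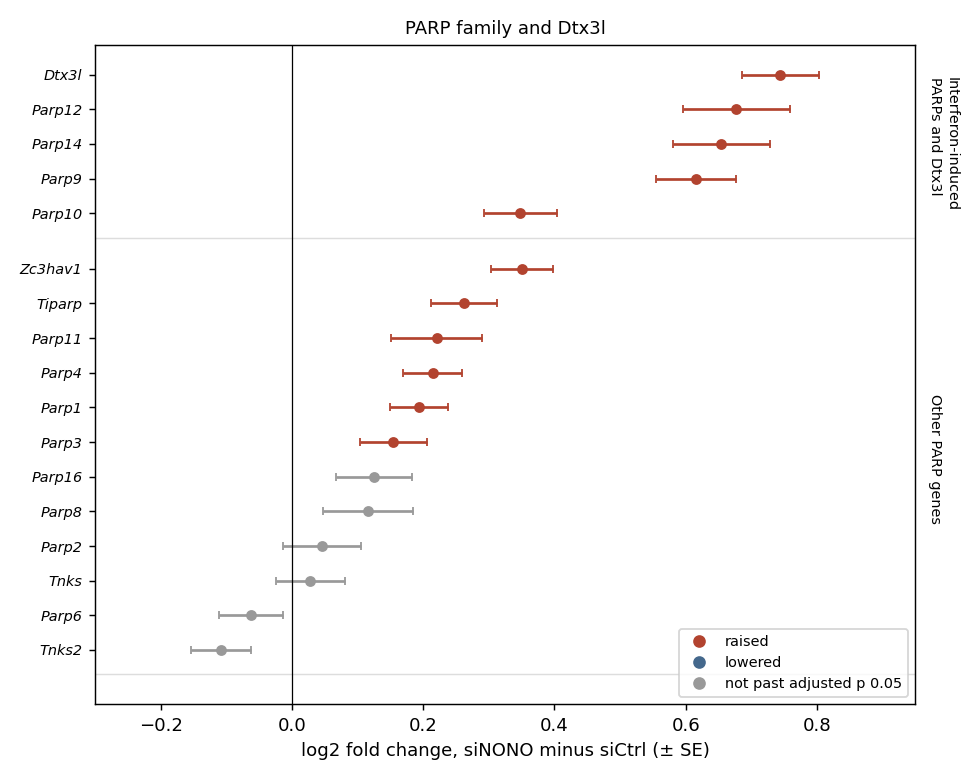
Log2 fold change, siNONO minus siCtrl, with SE (horizontal axis) for the 5 genes (upper block) and the 12 other PARP genes (lower block); red marks genes raised at an edgeR adjusted p under 0.05 and grey those that did not pass. Dtx3l, Parp12, Parp14 and Parp9 lie between 0.62 and 0.74, Parp10 at 0.35 beside Zc3hav1 at 0.35, and the other PARP genes lower.

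Summed over all 16 PARP genes, the level was 219, 214.5 and 218 FPKM in siNONO replicates 1, 2 and 3, against 175, 182 and 165 FPKM in siCtrl replicates 1, 2 and 3. Parp9, Parp10, Parp12 and Parp14 made up 30.7%, 29.5% and 30.2% of that sum in siNONO replicates 1, 2 and 3, against 25.5%, 23.9% and 22.2% in siCtrl replicates 1, 2 and 3. Their sum was 63.3 to 67.3 FPKM in siNONO and 36.7 to 44.6 FPKM in siCtrl, and that of the other 12 PARP genes was 151 to 152 FPKM in siNONO and 129 to 138 FPKM in siCtrl. The single most abundant PARP transcript was Parp3 in both groups, with 19.4% ± 0.867 of the sum in siNONO and 21.0% ± 0.332 in siCtrl (SD, n = 3 each).

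**Figure D4:**
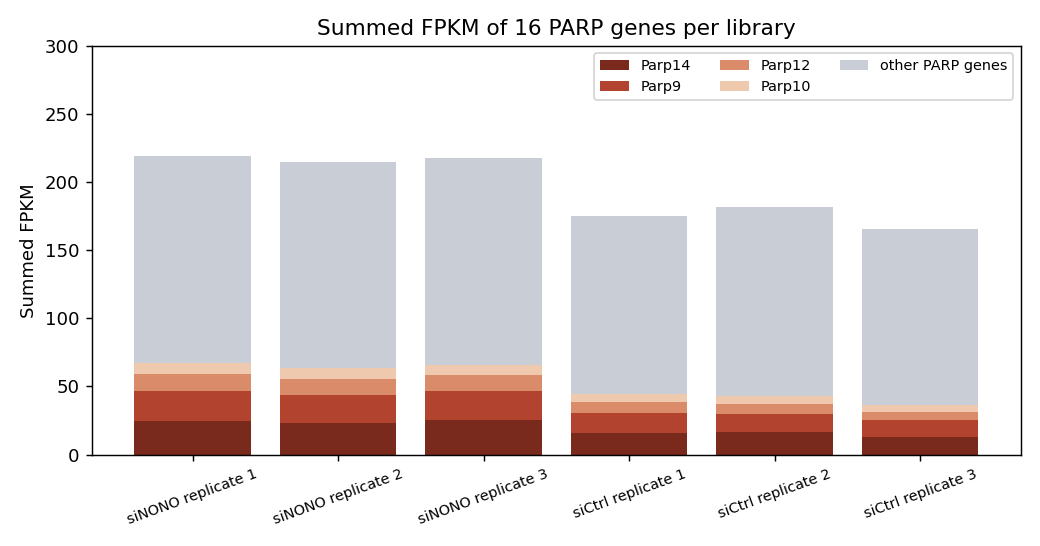
Summed FPKM of 16 PARP genes in each library (bars from 0), divided into Parp14, Parp9, Parp12, Parp10 and the other 12 genes. The 4 genes named here make up 29.5% to 30.7% of the bars of the siNONO libraries and 22.2% to 25.5% of those of the siCtrl libraries. Zc3hav1, also interferon-induced, is counted with the other 12.

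Most tested genes of a list for interferon signalling rose. The list is not only the route that induces the 5 genes. Beside receptors, kinases and transcription factors it holds Irf7, itself interferon-induced, Usp18, a brake on that signalling, and Stat6. Of 17 tested genes of this list, 12 were raised and 0 lowered by edgeR (0 lowered at an unadjusted p under 0.05 and 0 by DESeq2, which called 11 raised), with a median log2 fold change of 0.32. The edgeR shares over all genes tested were 16.2% raised and 15.9% lowered. The transcription factor genes Stat2 and Irf9 rose: Stat2 averaged 242 ± 4.52 CPM in siNONO and 168 ± 24.4 CPM in siCtrl (SD, n = 3 each; log2 fold change 0.53 ± 0.08), and Irf9 94.3 ± 2.14 CPM in siNONO and 65.6 ± 8.59 CPM in siCtrl (0.53 ± 0.07). Beside these, the log2 fold changes of Parp9, Parp12, Parp14 and Dtx3l were 0.62 to 0.74, a difference that was not tested. Irf7 rose most, with 451 ± 20.8 CPM in siNONO and 183 ± 66.6 CPM in siCtrl (1.30 ± 0.17; edgeR adjusted p = 5.11e-05). Usp18 (0.90 ± 0.14) lost its call in the robust quasi-likelihood fit (adjusted p = 0.0557). Stat6, the factor that PARP14 is known to assist, rose by 0.44 ± 0.05 and Irf1 by 0.32 ± 0.06.

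Among the receptors and kinases, the interferon-gamma receptor gene Ifngr1 (0.38 ± 0.04), the type I receptor gene Ifnar2 (0.21 ± 0.04) and the kinase gene Tyk2 (0.35 ± 0.06) rose. Jak2 (0.19 ± 0.05) lost its call without siNONO replicate 1 (edgeR adjusted p = 0.0544) and without siNONO replicate 3 (0.0565). Ifngr2 (0.19 ± 0.05) lost it without siNONO replicate 2 (0.0681) and without siCtrl replicate 3 (0.0733). Ifnar1 (0.12 ± 0.04; adjusted p = 0.0446) lost it in 10 of 18 alternatives, by DESeq2 (0.0678) and with a replicate block (0.119) among them. Jak1 (0.00), Irf2 (0.11), Irf3 (-0.05), Socs1 (0.39 ± 0.16) and Socs3 (-0.04) did not pass; Socs1 was raised with log2(FPKM + 1) (limma adjusted p = 0.0443). Of the genes that encode interferons only Ifnb1 is given here, and it was at the limit of detection. It had 3, 1 and 1 reads in siNONO replicates 1, 2 and 3 and 0 in each siCtrl library, where a count of 0 allows up to 3 reads, 0.0913 to 0.108 CPM.

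Genes that remove or bind ADP-ribose moved in both directions. Of 11 tested genes for ADP-ribose removal and macrodomain proteins, 1 was raised and 3 were lowered, beside 16.2% raised and 15.9% lowered over all genes tested, with a median log2 fold change of -0.11. The raised gene was Macroh2a2, a macrodomain histone variant, with 21.6 ± 0.514 CPM in siNONO and 17.2 ± 1.06 CPM in siCtrl (SD, n = 3 each; 0.33 ± 0.06; edgeR adjusted p = 0.00133). Macrod2, a hydrolase of mono-ADP-ribose, was lowered but near the limit of detection, with 14, 10 and 14 reads in siNONO replicates 1, 2 and 3, against 24, 49 and 34 reads in siCtrl replicates 1, 2 and 3 (-1.64 ± 0.32; adjusted p = 0.00138). With log2(FPKM + 1) it did not pass (limma adjusted p = 0.0512). The related hydrolase Macrod1 (-0.35 ± 0.10) lost its call without siNONO replicate 3 (edgeR adjusted p = 0.0542) and with log2(FPKM + 1) (limma adjusted p = 0.175), and Adprh, which acts on ADP-ribosylated arginine (-0.16 ± 0.05), lost it in 9 of 18 alternatives, with total library size (0.0971) among them. Parg, the main enzyme that degrades ADP-ribose chains (0.11), and Hpf1, the cofactor of PARP1 for serine (-0.05), did not pass.

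Of 3 tested relatives of Dtx3l in the Deltex family of ubiquitin ligases, 0 were raised and 1 lowered by edgeR (1 raised at an unadjusted p under 0.05; 0 raised and 0 lowered by DESeq2). Dtx3 had -0.17 ± 0.05 and lost its call in 11 of 18 alternatives, Dtx2 had -0.03 and Dtx4 0.09; Dtx4 was raised with total library size (edgeR adjusted p = 0.0119). Dtx1, with a mean of 0.0195 CPM in siNONO and no reads in siCtrl, was not tested. Among 14 tested genes of NAD metabolism, the substrate side of these enzymes, 3 were raised and 1 was lowered (median log2 fold change 0.12). The shares over all genes tested, beside this count and that of the Deltex genes, were 16.2% raised and 15.9% lowered. The NAD-cleaving ectoenzyme gene Bst1 rose by 0.20 ± 0.04 and the NAD kinase gene Nadk fell by 0.22 on the log2 scale. Nmrk1 (0.32 ± 0.11), of the nicotinamide riboside route to NAD, lost its call in 8 of 18 alternatives, by DESeq2 (adjusted p = 0.0683) among them.

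**Figure D5:**
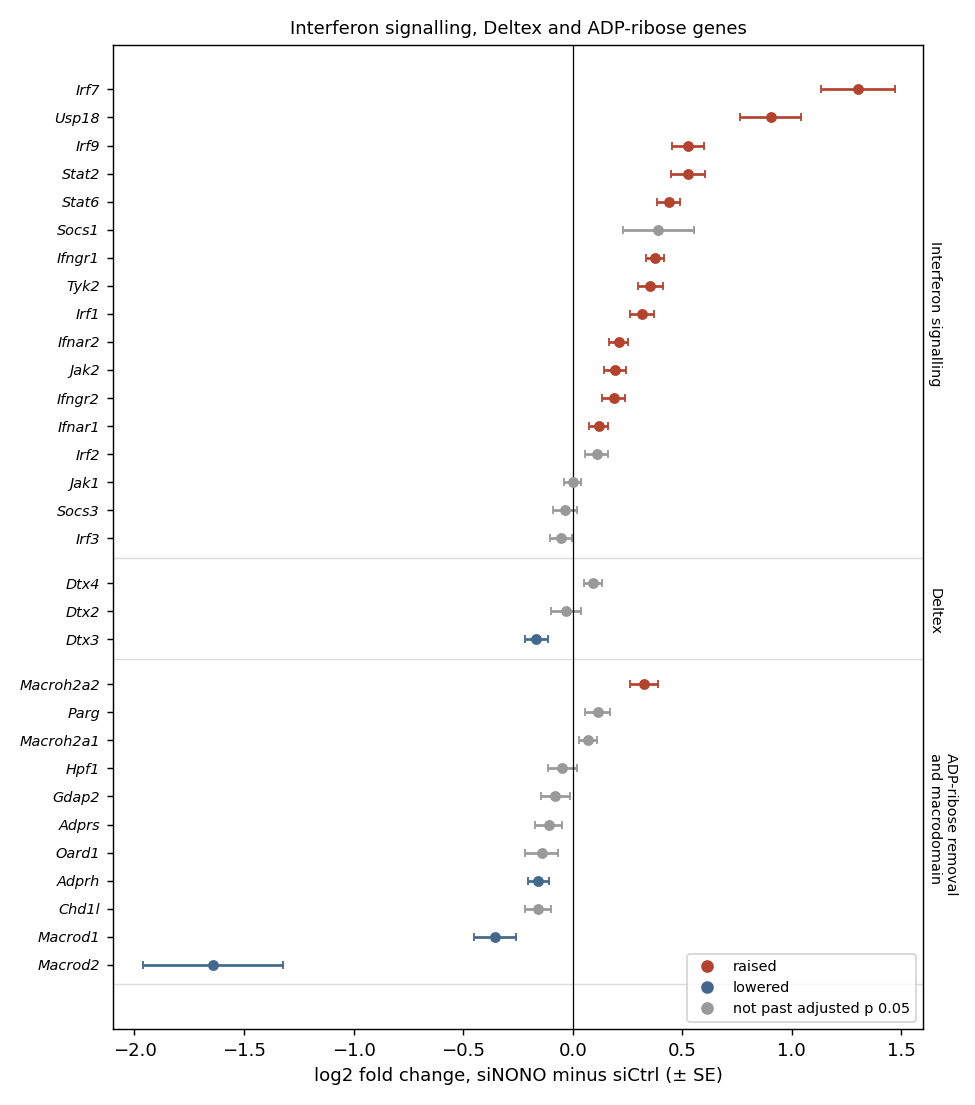
Log2 fold change, siNONO minus siCtrl, with SE (horizontal axis) for genes of interferon signalling (top), the Deltex family (middle) and ADP-ribose removal and macrodomain proteins (bottom); red marks raised, blue lowered and grey not past an edgeR adjusted p of 0.05. Irf7 lies farthest right at 1.30 and Macrod2 farthest left at -1.64.

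Neighbouring genes were read from the RefSeq annotation of GRCr8, used only for the order and overlap of genes. The submitters' notes name another build, mRatBN7.2, for the deposited data. In GRCr8, Parp9, Dtx3l and Parp14 follow one another on chromosome 11. Between them start no other protein-coding gene and 1 gene of another type. Parp9 and Dtx3l overlap at their ends, Parp10 overlaps Plec and Parp12 overlaps Tbxas1. Parp9 also overlaps LOC134481077, and Parp12 overlaps LOC134486573. Since how strand was used in counting is not stated, reads from these overlaps are uncertain. Of the 3 nearest protein-coding genes on either side of each member, 18 genes in all, 14 were tested, of which 2 were raised and 2 lowered, with a median log2 fold change of -0.04. Over all genes tested, 16.2% were raised and 15.9% lowered. Hspbap1, the next gene after Parp14, had 19.5, 20.5 and 19.4 CPM in siNONO replicates 1, 2 and 3, against 16.3, 16.6 and 15.5 CPM in siCtrl replicates 1, 2 and 3 (0.30 ± 0.06; edgeR adjusted p = 0.00220). Kpna1, an importin gene before Parp9, was lower (-0.15 ± 0.05; adjusted p = 0.0320), a call lost in 12 of 18 alternatives.

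Near Parp10, Plec, the gene of the cytolinker plectin, had 0.07 ± 0.05 and Grina, on the other side, -0.11 ± 0.05, and neither passed. Near Parp12, Tbxas1, the thromboxane synthase gene that overlaps it, moved the opposite way (-0.29 ± 0.10; edgeR adjusted p = 0.0349), a call lost in 10 of 18 alternatives, and the demethylase gene Kdm7a had -0.03. Slc37a3, a transporter gene 3 steps after Parp12, was raised by 0.19 ± 0.04 (adjusted p = 0.00272).

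Patterns over the 6 libraries were compared for 10078 other genes with a mean of at least 5 CPM. Genes with a symbol that starts with LOC, AABR or RGD were left out. Those most like the mean of the 5 were sought by the root mean square difference of centred log2 CPM. They were Sp110 (difference 0.02), an interferon-induced nuclear body protein, Adar (0.03), the RNA-editing adenosine deaminase, Tap1 (0.04), a subunit of the peptide transporter for MHC class I, Dnajb5 (0.04), a heat-shock cochaperone, and Nrbf2 (0.04), a protein of the autophagy lipid kinase complex. Sp110 had 137, 131 and 130.2 CPM in siNONO replicates 1, 2 and 3, against 95.2, 93.2 and 79.6 CPM in siCtrl replicates 1, 2 and 3. Parp14 and Parp9 lay 0.05 from the mean, Parp12 0.06, Dtx3l 0.08 and Parp10 0.14. Each of these genes is part of that mean, which draws it closer than a gene outside. Even so, Parp14 would rank 8, Parp9 12, Parp12 23, Dtx3l 51 and Parp10 303 among the genes searched. The 6 libraries fall into 2 groups, so likeness here is mostly that of the step between them and of the low siCtrl replicate 3.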

How the data were processed

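Poly(A)-selected RNA of 6 libraries was sequenced; per the labels' protocols total RNA was DNase-treated and a stranded mRNA kit was used. The submitters' processing notes name HISAT2, edgeR and build mRatBN7.2. Tool versions, how reads were counted and whether strand was used are not stated there. The deposited count table holds whole-number read counts per gene (21378 genes). The deposited FPKM table (21081 genes) holds values that the authors normalized to the length of each gene and to sequencing depth. There were 0 columns of other samples.

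Groups and replicate numbers came from the titles. Counts were filtered with filterByExpr, scaled by TMM and tested with edgeR 4.0.16 (glmQLFit, glmQLFTest; limma 3.58.1, R 4.3.3), siNONO against siCtrl (two-sided; 4 residual degrees of freedom), with Benjamini-Hochberg adjustment over 14412 genes. SE is the log2 fold change over the square root of F. Within-library log2 CPM used a prior count of 2. Replicates of a group were not copies (chi-square of 3.18 to 7.58 per degree of freedom). A count of 0 allows 3 counts, 0.0899 to 0.108 CPM, for counting error only. In 5 simulated draws of siNONO against siCtrl on 14412 genes with 200 changed, the test recovered 41.2% of 1.2-fold, 80.0% of 1.5-fold, 89.2% of 2-fold and 98.4% of 4-fold changes, and 6.65% of calls were false. In the data 4630 genes were called, far more than were changed in a draw, so these shares need not hold for the data.

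The 5 genes, the lists and the tests were chosen with earlier results of these data known. Named were Nono, the 5 genes, genes of the PARP, ADP-ribose, Deltex and interferon signalling lists, from the NAD and marker lists up to 2 called genes with the largest rise and fall, the neighbours, and the 5 genes most alike in pattern; the markers Lyz2, Ptprc, Col1a2 and Pdgfra were given for their level. One gene of the interferon signalling list is not reported here. Alternatives, among them DESeq2 1.42.0, limma-voom and limma-trend on log2(FPKM + 1) or log2(FPKM + 0.1), are given in the closing section. Figures used matplotlib 3.10.9. No promoter or protein sequence was used here, so the planned motif search was not run.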

Additional observations from a re-analysis of the deposited data

How the results depend on the processing

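All 5 genes stayed raised under each of the 18 alternatives run (scaling, filters, tests, FPKM, a threshold of 0.01, each library left out); log2 fold changes ranged from 0.69 to 0.80 for Dtx3l, 0.55 to 0.76 for Parp12, 0.55 to 0.71 for Parp14, 0.55 to 0.70 for Parp9 and 0.30 to 0.40 for Parp10, with the highest adjusted p 0.00346 (Parp10, edgeR without siNONO replicate 1). Without one library, 1663 to 2235 genes were raised and 1689 to 2149 lowered over all genes tested. With a threshold of 0.01, 1428 were raised and 1424 lowered; with at least 1 FPKM in 3 libraries, 2687 and 1424; with log2(FPKM + 0.1), 2820 and 1566. Same-numbered libraries did not deviate together over all genes tested (correlations of -0.05, -0.09 and -0.01), which does not settle whether they were paired. With a replicate block 1894 genes were raised and 1863 lowered, and the 5 genes stayed raised. With total library size, 2 ADP-ribose genes were raised, 1 Deltex gene was raised and 0 lowered, and 6 NAD genes were raised. The Deltex list had 0 lowered by DESeq2 and with the replicate block, and 0 to 1 without one library; the ADP-ribose list had 1 to 4 lowered without one library, with 1 without siNONO replicate 3. The cause was not tested. The shift of Parp9 minus Dtx3l was -0.19 to -0.05 and that of Parp14 minus Parp9 -0.0034 to 0.11 without one library. Of 1971 refits of 111 other genes, 1814 kept their side of the threshold, 111 lost a call, 46 gained one and 0 changed the direction of a call. With 3 libraries a group, 1.2-fold changes were often missed in the simulation.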
